A study of Rattus norvegicus with 63 samples.

Results

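Wy-14643 (Wy, pirinixic acid) is a synthetic ligand of the nuclear receptor PPARA, and the livers of rats dosed with it for 3 days were compared with those of vehicle controls. The members were taken from the sample labels alone, as the 3 Wy animals and the 3 animals of control set 1, which is the set that the Wy labels name, out of 63 animals in all. Protein lysates had been spotted on reverse-phase protein arrays and read with antibodies. Each analyte is named for the protein or modified form that its antibody was meant to detect. The deposited value is a relative fluorescence intensity (RFI) on a linear scale. The 158 analytes, 104 total forms and 54 modified forms of 101 gene symbols, were all kept.

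PPARA forms a dimer with RXRA on DNA and switches on fatty acid oxidation, and in rodents its ligands enlarge the liver, multiply the peroxisomes and raise hepatocyte proliferation. The textbook targets of PPARA, the CYP4A enzymes and peroxisomal acyl-CoA oxidase, carry no antibody among these analytes. What the arrays do cover are drug metabolizing enzymes, kinase cascades that carry growth factor and stress signals, cell cycle proteins and histone marks.

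All animals were male Wistar Hanover rats aged 8 to 10 weeks at assignment, gavaged with 5 ml per kg body weight in groups of 5. The Wy rats (animals 1, 2 and 3) had received 60 mg/kg/d for 3 days, whereas the rats of control set 1 (animals 4, 5 and 6) had received the vehicle methylcellulose and are labelled 14 days. The study's methods speak of time-matched controls and of carboxymethyl cellulose as the vehicle, which the labels do not give. As labelled, time and compound cannot be told apart against these controls, so Wy was also set against other compounds: dehydroepiandrosterone (DHEA, 600 mg/kg/d, 14 days, control set 1), piperonylbutoxide (PBO, 1200 mg/kg/d, 3 days, control set 5) and diethylstilbestrol (DES, 10 mg/kg/d, 3 days, control set 5), each with 3 rats, where control set 5 is again methylcellulose at 14 days. Per the study's methods, the 3 rats of a treated group had been chosen from it because histopathology showed a liver change, and the Wy values hold for rats chosen in that way. The hepatocyte proteins HNF4A, CYP1A2, CYP2C8, CYP2E1 and CYP3A4 were measured, but nearly every analyte reads above 0 in these arrays, so their readings do not check the liver label. Markers of other liver cell types were not among the analytes, and in whole tissue fewer cells of a type and less protein per cell cannot be told apart.

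The median RFI of the 6 livers ran from 0.545 to 0.637, and 2 of their 948 values lay at or below 0 and had no logarithm. Between control set 1 and each of the other 3 methylcellulose sets, limma called 0 analytes, with 0, 0 and 6 at an unadjusted p below 0.05. With 3 animals in a set, the lack of calls does not show that the sets were alike. Analytes are named as called where the adjusted p was below 0.05 (limma on log2 RFI over all 63 animals, Benjamini-Hochberg adjustment over the analytes tested), and log2 values below are mean differences with the standard error (SE) of that fit. An RFI depends on its antibody, so levels are compared between animals and not between analytes.

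After 3 days of Wy 14 of the 158 analytes were called (8.86%), of which 2 were higher (1.27%) and 12 lower (7.59%) than in control set 1. The higher ones were CYP3A5 and MAP2K1. The lower ones were the drug metabolizing enzymes CYP2B6_3 and CYP1A2_1, the glutamine synthetase GLUL, the stress kinases MAPK8 and MAPK14 with phosphorylated MAPK8, phosphorylated MAPK3, GSK3B, RPS6, CTNNB1 and CDKN1B, and total STAT3. At an unadjusted p below 0.05 there were 27. Leaving out Wy animal 1 reduced the calls to 8, and leaving out control animal 5 reduced them to 9. After each animal had been centred on its own median, 23 were called, 7 higher and 16 lower, and these held the 14.

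**Figure D1:**
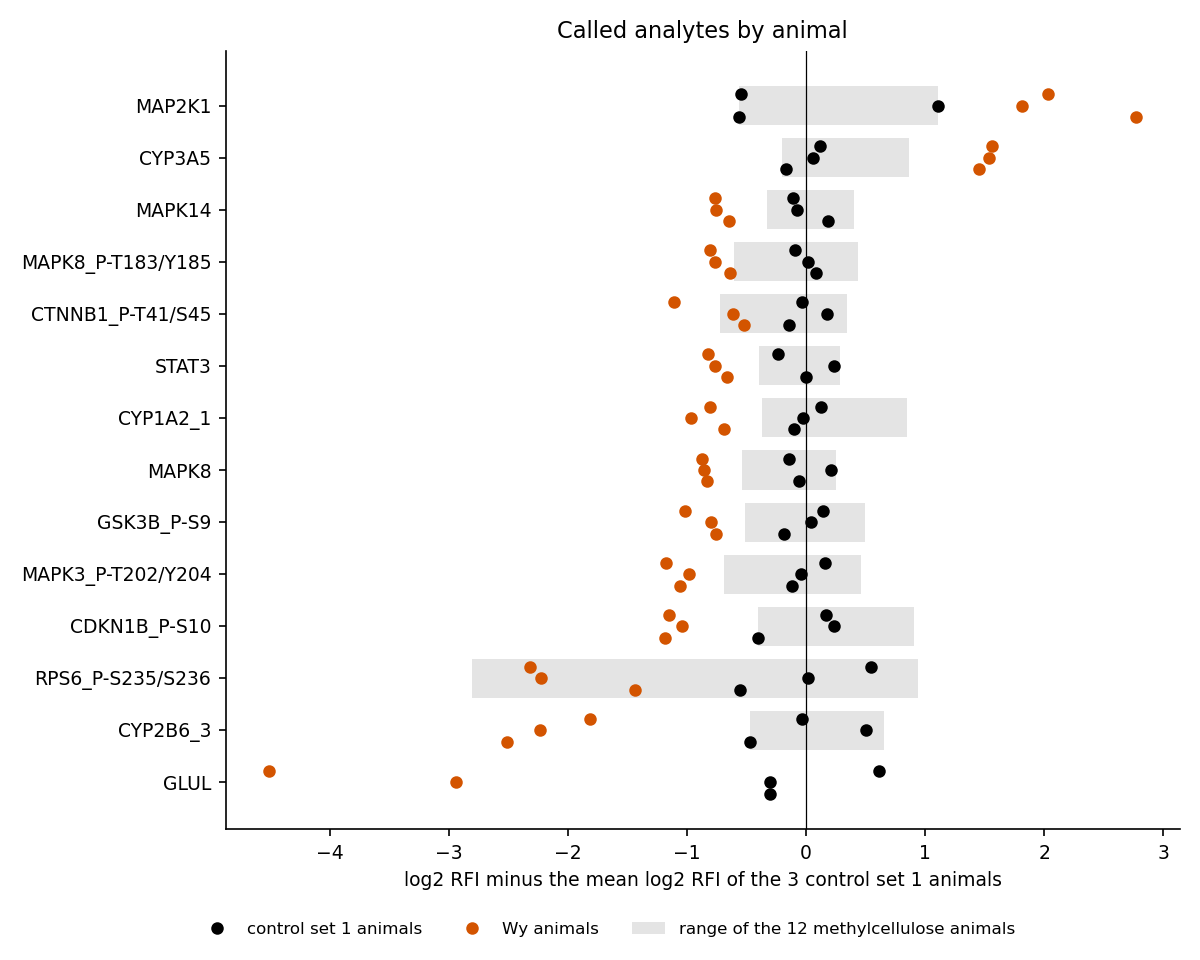
RFI of the 14 called analytes in each liver, as log2 RFI minus the mean log2 RFI of the 3 control set 1 animals (horizontal axis). Orange points are Wy animals, black points control set 1 animals and grey bars the range of all 12 methylcellulose animals. No orange point falls within the span of the black points of its row; the third GLUL value of Wy lies below 0 RFI and cannot be drawn, and GLUL has no bar because 1 methylcellulose animal is below 0.

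For 44 analytes no Wy animal fell within the span of the 3 controls and all were on 1 side of it (27.8%), 9 above and 35 below, among them all 14 that were called. Against the wider range of the 12 methylcellulose animals the number was 16 (10.1%), 2 above and 14 below. Of the called analytes 11 were among these 16, and the other 3, GLUL, RPS6_P-S235/S236 and CTNNB1_P-T41/S45, overlapped with methylcellulose animals of other sets. Differences leaned slightly below 0: the median log2 difference over all analytes was -0.10, with 110 negative and 48 positive values. The median RFI of the animals overlapped, at 0.545, 0.548 and 0.601 with Wy and 0.575, 0.637 and 0.570 in the controls. Modified forms had a median of -0.17, with 48 of 54 below 0 and 6 called, and total forms a median of -0.05, with 62 of 104 below 0 and 8 called.

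**Figure D2:**
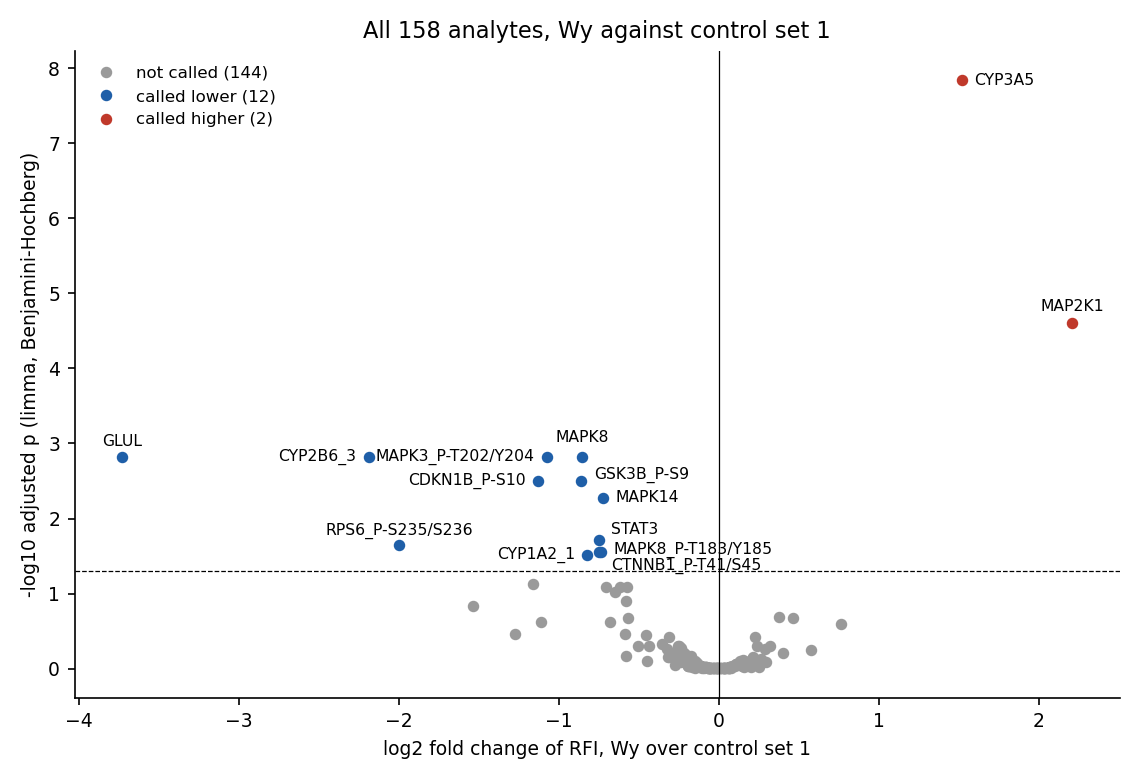
Log2 fold change of RFI, Wy over control set 1 (horizontal axis), against -log10 of the adjusted p (vertical axis) for the 158 analytes, with the dashed line at an adjusted p of 0.05. The 14 named points lie above the line, 12 to the left and 2 to the right, with CYP3A5 highest.

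Cytochromes P450 oxidize drugs, steroids and fatty acids, and several of their symbols here (CYP3A5, CYP3A4, CYP2B6 and CYP2C8 among them) are those of human genes. Which rat proteins the antibodies bound, and how numbered antibodies to the same symbol differ, is not given in the sources used here. Of the 14 P450 analytes of the list, 1 was called higher and 2 lower, beside 1.27% and 7.59% of all analytes, and their median log2 difference was -0.24, beside -0.10 over all analytes. The antibody CYP3A5, named for a steroid and drug hydroxylase, gave 1.58, 1.56 and 1.47 RFI in the Wy livers and 0.580, 0.557 and 0.476 in the controls. The Wy animals were close together and far above the controls, and 0 of the other 60 animals of the series reached the lowest of them. The rise was 2.86-fold, a log2 difference of 1.52 ± 0.18 (limma, adjusted p = 1.45e-08), and it was called in all 13 alternative settings.

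The other CYP3A antibodies were not called. CYP3A4_1 gave 4.82, 6.23 and 5.74 RFI with Wy and 6.38, 7.20 and 5.83 in the controls (log2 difference -0.21 ± 0.25). CYP3A4_2 gave 1.19, 0.722 and 0.854 RFI against 1.15, 1.39 and 1.31 (-0.50 ± 0.32). In both, Wy and control animals overlapped.

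CYP2B6_3, an antibody named for the phenobarbital-inducible CYP2B subfamily, showed the opposite picture. It read 27.4, 20.5 and 16.8 RFI in the Wy livers and 94.1, 137 and 69.8 in the controls. Each Wy animal was below all 12 methylcellulose animals, whose lowest was 69.8 RFI. The level was 4.56-fold lower with Wy, a log2 difference of -2.19 ± 0.49 (limma, adjusted p = 0.00149), again called in all 13 alternatives. CYP2B6_1 and CYP2B6_2 were not called, with log2 differences of 0.05 ± 0.33 and 0.08 ± 0.15, the sign of the first turning with all methylcellulose controls or without Wy animal 3.

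CYP1A2_1, named for a caffeine and arylamine oxidizing enzyme, read 0.734, 0.656 and 0.797 RFI with Wy against 1.41, 1.26 and 1.20 in the controls, so the groups were well separated. It fell by 0.82 ± 0.26 on the log2 scale (limma, adjusted p = 0.031). Its call was lost without any of Wy animals 1 and 2 or control animals 4, 5 and 6, with log2 differences from -0.87 to -0.75 and adjusted p from 0.0567 to 0.138, and in the series matrix (-0.81, adjusted p = 0.147). CYP1A2_2 overlapped between the groups at -0.26 ± 0.20. CYP1A1_1, the dioxin-inducible relative, was below the controls in each Wy animal (0.559, 0.533 and 0.600 against 0.779, 0.720 and 1.04 RFI) but not called, with -0.57 ± 0.26 and an adjusted p of 0.214, and CYP1A1_2 was at 0.15 ± 0.15.

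CYP2C8, an arachidonic acid and drug oxidase, read 1.15, 1.25 and 1.39 RFI with Wy and 2.77, 3.26 and 2.46 in the controls. Although the groups did not overlap and each Wy animal was below all 12 methylcellulose animals, the log2 difference of -1.16 ± 0.41 missed the threshold (limma, adjusted p = 0.0734) and was called only after centring (adjusted p = 0.037), after adding the other methylcellulose controls or with only the 6 animals in the fit. CYP2D6 was at 0.21 ± 0.19, and the ethanol-inducible CYP2E1 was at -0.10 ± 0.75 and -0.58 ± 0.48 with its first and second antibody.

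Of the 6 drug metabolism partners, 0 were called, and their median log2 difference was 0.22 beside -0.10 over all analytes. POR, the reductase that hands electrons to the P450s, read 12.3, 16.5 and 21.2 RFI with Wy and 18.1, 16.0 and 13.7 in the controls, with full overlap. CYP4F2, a fatty acid hydroxylase that was kept with these partners, overlapped too, at 0.04 ± 0.35. UGT1A1, which conjugates bilirubin, was above the controls in each Wy animal (7.14, 6.61 and 17.3 against 5.94, 5.22 and 5.43 RFI), with a log2 difference of 0.76 ± 0.37 and an adjusted p of 0.255. Wy animal 3 carried most of that difference. PON3, a lactonase, read 1.24, 0.980 and 1.20 RFI against 0.834, 0.943 and 0.708 and was called only after centring, where its log2 difference was 0.55 (limma, adjusted p = 0.011) in place of 0.46 ± 0.21.

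**Figure D3:**
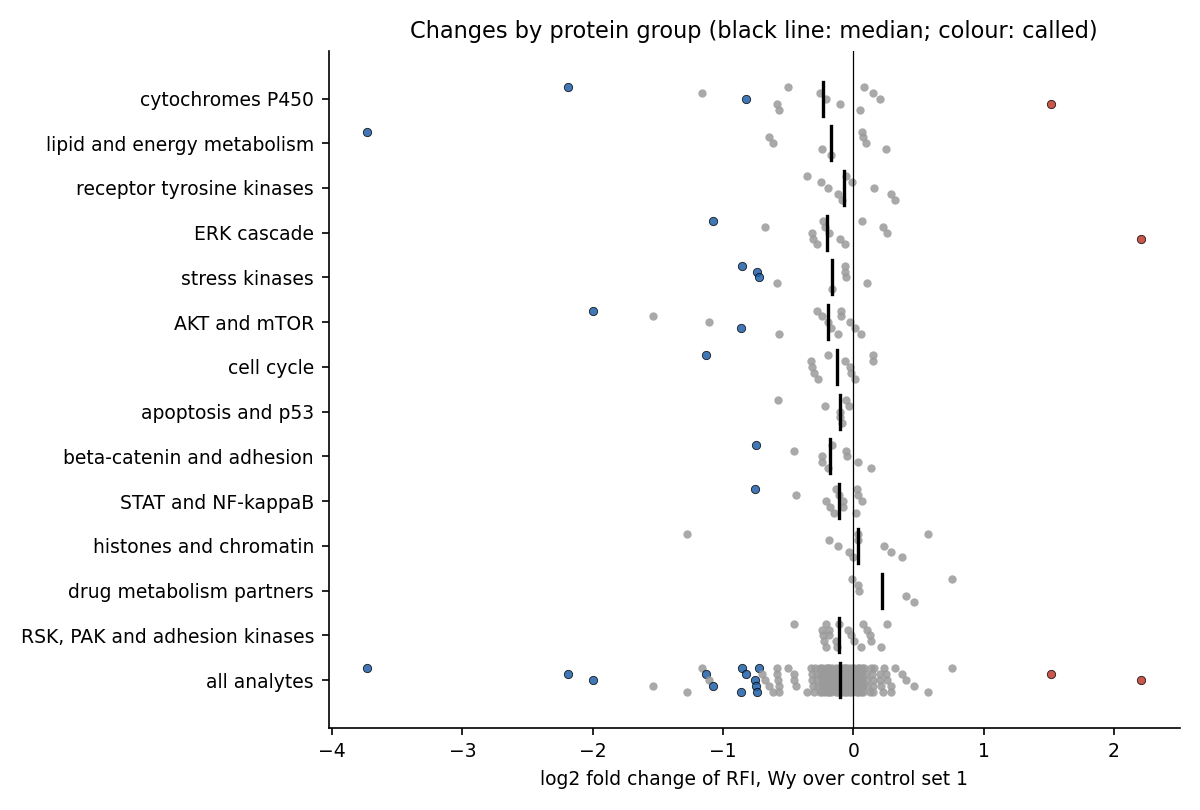
Log2 fold change of RFI, Wy over control set 1 (horizontal axis), of each analyte by protein group, with blue points called lower, red points called higher, grey points not called and the black line at the median. Most group medians lie left of 0, beside a median of -0.10 over all analytes, and the stress kinases hold 3 blue points.

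In the lipid and energy list of 9 analytes, 1 was called lower, beside 7.59% of all analytes, and the receptor of Wy itself was not called. PPARA_1, PPARA_2 and PPARA_3 had log2 differences of 0.06 ± 0.15, 0.10 ± 0.18 and 0.07 ± 0.15. The second antibody gave 1.58, 1.59 and 1.54 RFI with Wy against 1.49, 1.42 and 1.48, so the Wy animals were above the 3 controls by a small margin, within the range of the 12 methylcellulose animals (1.25 to 2.17 RFI). Its partner RXRA was at -0.17 ± 0.14, and HNF4A, a factor that maintains hepatocyte identity, at -0.24 ± 0.17.

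GLUL, the glutamine synthetase of the hepatocytes around the central vein, was near the background of its antibody with Wy: 0.0430 and 0.127 RFI in animals 1 and 2, and -2.28 in animal 3. The controls gave 1.5, 0.792 and 0.793 RFI. The fit drops animal 3, so the log2 difference of -3.73 ± 0.82 (limma, adjusted p = 0.00149) rests on 2 Wy animals with readings close to 0, and the size of the fold is not well determined. Without Wy animal 1 it was -2.95 and no longer called (adjusted p = 0.101), nor was it called in the series matrix (-2.03, adjusted p = 0.156) or with values at or below 0 set to the lowest positive RFI (-4.59, adjusted p = 0.06). Low GLUL was not confined to Wy, since 15 of the other 60 animals were at or below the highest Wy reading, among them a methylcellulose animal at -1.34 RFI.

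PRKAA1, the catalytic subunit of the energy sensor AMPK, read 0.260, 0.298 and 0.332 RFI with Wy and 0.437, 0.516 and 0.416 in the controls. PRKAA1_P-T172, the form phosphorylated at the activating site, read 1.21, 1.19 and 1.31 RFI against 1.72, 2.39 and 1.75. Both were below the controls in each Wy animal, but with log2 differences of -0.62 ± 0.23 and -0.65 ± 0.25 neither was called (limma, adjusted p = 0.081 and 0.096), and only total PRKAA1 was called after centring (adjusted p = 0.00709).

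The ERK cascade passes growth signals through the kinases MAP2K1 and MAP2K2 and from them to MAPK3. Of its 14 analytes, 1 was called higher and 1 lower, beside 1.27% and 7.59% of all analytes. Total MAP2K1 read 190, 162 and 317 RFI in the Wy livers and 31.7, 100 and 31.2 in the controls. Control animal 5 was well above its fellows and yet below each Wy animal, and 1 of the other 60 animals reached the lowest Wy value. The rise was 4.62-fold, a log2 difference of 2.21 ± 0.37 (limma, adjusted p = 2.47e-05), and it was called in all 13 alternatives.

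Phosphorylated MAP2K1_P-S217/S221, the activated form, overlapped between the groups, with 0.320, 0.279 and 0.430 RFI against 0.424, 0.469 and 0.344 (-0.28 ± 0.21). The sister kinase MAP2K2 was above the controls in each Wy animal by a small margin, at 0.23 ± 0.13, and was called only after centring (limma, adjusted p = 0.0373).

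Downstream, the active form MAPK3_P-T202/Y204 read 1.33, 1.52 and 1.45 RFI with Wy and 3.37, 2.94 and 2.77 in the controls. The groups did not overlap, nor did Wy overlap with the 12 methylcellulose animals, whose lowest was 1.87 RFI. The form was 2.10-fold lower, a log2 difference of -1.07 ± 0.24 (limma, adjusted p = 0.00149), called in all 13 alternatives. Total MAPK3 was at -0.31 ± 0.27 and was not called. ELK1, a transcription factor that the cascade phosphorylates, read 2.19, 2.00 and 1.84 RFI against 3.50, 3.88 and 2.43, with -0.68 ± 0.32 and an adjusted p of 0.238.

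Of the 9 stress kinase analytes 3 were called, all lower, where 7.59% of all analytes were called lower. The median log2 difference of the list was -0.17, beside -0.10 over all analytes. The list was written with earlier results of these data known, and the calls include both the total and the phosphorylated form of MAPK8. MAPK8 (JNK1) read 0.702, 0.710 and 0.723 RFI in the Wy livers and 1.17, 1.48 and 1.23 in the controls. The Wy animals were nearly identical and all below the lowest methylcellulose animal at 0.888 RFI. MAPK8 was 1.81-fold lower, with a log2 difference of -0.86 ± 0.19 (limma, adjusted p = 0.00149), called in all 13 alternatives.

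The activated form MAPK8_P-T183/Y185 read 0.140, 0.144 and 0.157 RFI against 0.229, 0.248 and 0.260, and fell by 0.74 ± 0.23 on the log2 scale (limma, adjusted p = 0.0276). This call was lost without Wy animals 1 or 2 or control animals 4, 5 or 6, with log2 differences from -0.79 to -0.70 and adjusted p from 0.0546 to 0.111, and in the series matrix (-1.04, adjusted p = 0.0633). MAPK14 (p38) read 0.309, 0.310 and 0.333 RFI against 0.486, 0.496 and 0.597. It fell by 0.72 ± 0.19 (limma, adjusted p = 0.0053), and without control animal 6 by 0.63 (adjusted p = 0.0516). MAPK14_P-T180/Y182, its activated form, was also below the controls in each Wy animal, at -0.59 ± 0.31, but was not called.

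In the AKT and mTOR list, which covers the insulin-driven pathway of growth and glycogen synthesis, 2 of 15 analytes were called, both lower and both phosphorylated, which is close to the 7.59% of all analytes and the 6 of 54 modified forms that were called lower. GSK3B_P-S9, the form of glycogen synthase kinase inhibited through phosphorylation by AKT, read 0.124, 0.145 and 0.150 RFI with Wy and 0.279, 0.260 and 0.223 in the controls. Each Wy animal was below the lowest methylcellulose animal at 0.177 RFI. The form was 1.81-fold lower, with a log2 difference of -0.86 ± 0.21 (limma, adjusted p = 0.0032), and called in all 13 alternatives. Total GSK3B was at -0.02 ± 0.18, and its sign turned with the series matrix values, with centring and without some single animals.

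RPS6_P-S235/S236, the ribosomal protein phosphorylated by S6 kinases, read 1.33, 1.41 and 2.44 RFI with Wy and 9.66, 6.69 and 4.52 in the controls. Wy stayed below control set 1, but the 12 methylcellulose animals ran from 0.945 to 12.7 RFI and covered all Wy values. The log2 difference was -2.0 ± 0.59 (limma, adjusted p = 0.0228). The call was lost without Wy animals 1 or 2 or control animals 4 or 5, where the difference lay between -1.99 and -1.73 and the adjusted p between 0.0769 and 0.120. Both antibodies to total RPS6 were lower on average without being called, at -1.54 ± 0.63 and -1.11 ± 0.52.

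AKT1 and AKT1_P-S473, the kinase upstream and its active form, were at -0.19 ± 0.19 and -0.10 ± 0.20, the second with an opposite sign without Wy animal 1. MTOR_P-S2448, a phosphorylated form of the mTOR kinase, read 0.388, 0.397 and 0.477 RFI against 0.623, 0.701 and 0.551. Its log2 difference of -0.57 ± 0.21 was called only after centring (limma, adjusted p = 0.011 in place of 0.081), with all methylcellulose controls or with only the 6 animals in the fit.

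In the cell cycle list 1 of 12 analytes was called, a share close to the 8.86% of all analytes. CDKN1B_P-S10, a phosphorylated form of the cyclin kinase inhibitor p27, read 1.54, 1.66 and 1.5 RFI with Wy and 3.83, 4.03 and 2.59 in the controls, with no overlap. It fell by 1.13 ± 0.27 on the log2 scale (limma, adjusted p = 0.0032), but in the authors' series matrix the same name gave 0.41 (adjusted p = 0.951) and the name CDKN1B gave -1.20 (adjusted p = 0.0123), where the RFI of CDKN1B gave -0.02 ± 0.19. Over the 45 treated animals the RFI of CDKN1B_P-S10 had a Spearman correlation of 0.833 with the matrix row CDKN1B and of 0.369 with its own, so which form of p27 fell is uncertain. These correlations, taken on deviations from group means, were loose in general. Of the 158 analytes 75 had their own name as the closest matrix row, and the median correlation with the row of the same name was 0.555. Whether names, the scaling of animals or both differ between the matrix and the RFI was not tested. Comparisons of the RFI with the series matrix therefore carry a doubt for other analytes as well. CCND1 (cyclin D1) was at -0.32 ± 0.28, and CDKN1B_P-T187 at -0.20 ± 0.20.

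Of 10 analytes in the beta-catenin and adhesion list, 1 was called, which is again near the 8.86% over all analytes. CTNNB1_P-T41/S45, the form of beta-catenin marked for degradation, read 0.142, 0.201 and 0.214 RFI against 0.299, 0.348 and 0.278, and fell by 0.75 ± 0.23 on the log2 scale (limma, adjusted p = 0.0276). Wy animals 2 and 3 lay above the lowest methylcellulose animal at 0.186 RFI. The call was lost without Wy animal 1 (-0.57, adjusted p = 0.276), control animal 5 (-0.66, adjusted p = 0.156) or control animal 4 (-0.77, adjusted p = 0.0699), and in the series matrix (-0.95, adjusted p = 0.115). Total CTNNB1 was at -0.45 ± 0.24 and CTNNB1_P-S675 at -0.16 ± 0.21, the latter at 0.02 without Wy animal 1. PTK2_P-Y576/Y577, the activated focal adhesion kinase, read 0.183, 0.188 and 0.194 RFI against 0.203, 0.214 and 0.253, and was not called at -0.24 ± 0.16.

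STAT3, a transcription factor of cytokine signalling, was the 1 called analyte of 13 in the STAT and NF-kappaB list, a share near the 8.86% of all analytes. It read 1.09, 1.14 and 1.22 RFI with Wy and 1.64, 2.27 and 1.94 in the controls, and each Wy animal was below all 12 methylcellulose animals. STAT3 fell by 0.75 ± 0.22 on the log2 scale (limma, adjusted p = 0.0192). Without Wy animals 1 or 2 or control animals 5 or 6 the difference was between -0.75 and -0.64 and no longer called, with an adjusted p from 0.0516 to 0.144. The phosphorylated forms were not called: STAT3_P-Y705 was at 0.07 ± 0.17 and STAT3_P-S727 at -0.11 ± 0.27.

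Beside the drug metabolism partners, 4 further lists had 0 analytes called in either direction, where 8.86% of all analytes were called: 10 receptor tyrosine kinases (median log2 difference -0.07), 7 apoptosis and p53 proteins (-0.10), 11 histones and chromatin proteins (0.03) and 21 RSK, PAK and adhesion kinases (-0.11). BCL2L1, which protects from apoptosis, read 0.700, 0.651 and 0.833 RFI with Wy and 1.06, 1.23 and 0.972 in the controls, below all methylcellulose animals, at -0.58 ± 0.23 (limma, adjusted p = 0.127). BIK, which promotes apoptosis and stands in no list, was at -0.70 ± 0.25 (adjusted p = 0.081) and was called lower after centring (-0.61, adjusted p = 0.0448). Histone H3 (HIST1H3A) read 1.74, 1.46 and 0.825 RFI against 2.69, 3.83 and 2.88, at -1.28 ± 0.67 and an adjusted p of 0.342. HDAC2, HDAC3 and the growth factor receptor IGF1R, with log2 differences of 0.38 ± 0.17, 0.29 ± 0.19 and 0.32 ± 0.20, were called higher only after centring (limma, adjusted p = 0.0041, 0.0483 and 0.0259). MET_P-Y1349, a phosphorylated growth factor receptor, read 0.217, 0.206 and 0.222 RFI with Wy and 0.239, 0.284 and 0.243 in the controls, at -0.25 ± 0.16. HIST1H4A_A-K8, an acetylated form of histone H4, read 0.646, 0.649 and 0.607 RFI against 0.571, 0.568 and 0.482, at 0.23 ± 0.15. Both stood outside the span of the 3 controls, within that of the 12 methylcellulose animals, and were not called.

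The ratio of a modified form to the total form of the same symbol within each liver asks whether a mark moved apart from its protein. Of 49 such pairs, 4 were called (8.16%). MAP2K1_P-S217/S221 over MAP2K1 was 0.00169, 0.00172 and 0.00136 in the Wy livers and 0.0134, 0.00469 and 0.0110 in the controls, a log2 difference of -2.48 ± 0.33 (limma, adjusted p = 8.58e-08). Of the 2 forms in this ratio total MAP2K1 was called higher and the phosphorylated form was not called.

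GSK3B_P-S9 over GSK3B read 0.182, 0.226 and 0.221 with Wy and 0.394, 0.346 and 0.378 in the controls, at -0.83 ± 0.15 (limma, adjusted p = 4.48e-05). Here the mark was called lower and the total form was not called. STAT3_P-Y705 over STAT3 was the 1 higher ratio, with 0.311, 0.358 and 0.305 against 0.219, 0.169 and 0.167, at 0.82 ± 0.18 (limma, adjusted p = 0.000659), in which the total form fell. CDKN1B_P-S10 over CDKN1B was at -1.11 ± 0.29 (limma, adjusted p = 0.0052), carries the doubt over the form of p27, and was lost without control animal 4 (-0.91, adjusted p = 0.0713) or Wy animal 3 (-0.97, adjusted p = 0.0577). In the series matrix that ratio was 1.61.

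For the other phosphorylated forms that fell, the ratio was not called. MAPK3_P-T202/Y204 over MAPK3 was at -0.76 ± 0.39, CTNNB1_P-T41/S45 over CTNNB1 at -0.30 ± 0.28, and MAPK8_P-T183/Y185 over MAPK8 at 0.12 ± 0.23. The ratios of RPS6_P-S235/S236 to RPS6_1 and RPS6_2 were at -0.46 ± 0.75 and -0.89 ± 0.71.

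**Figure D4:**
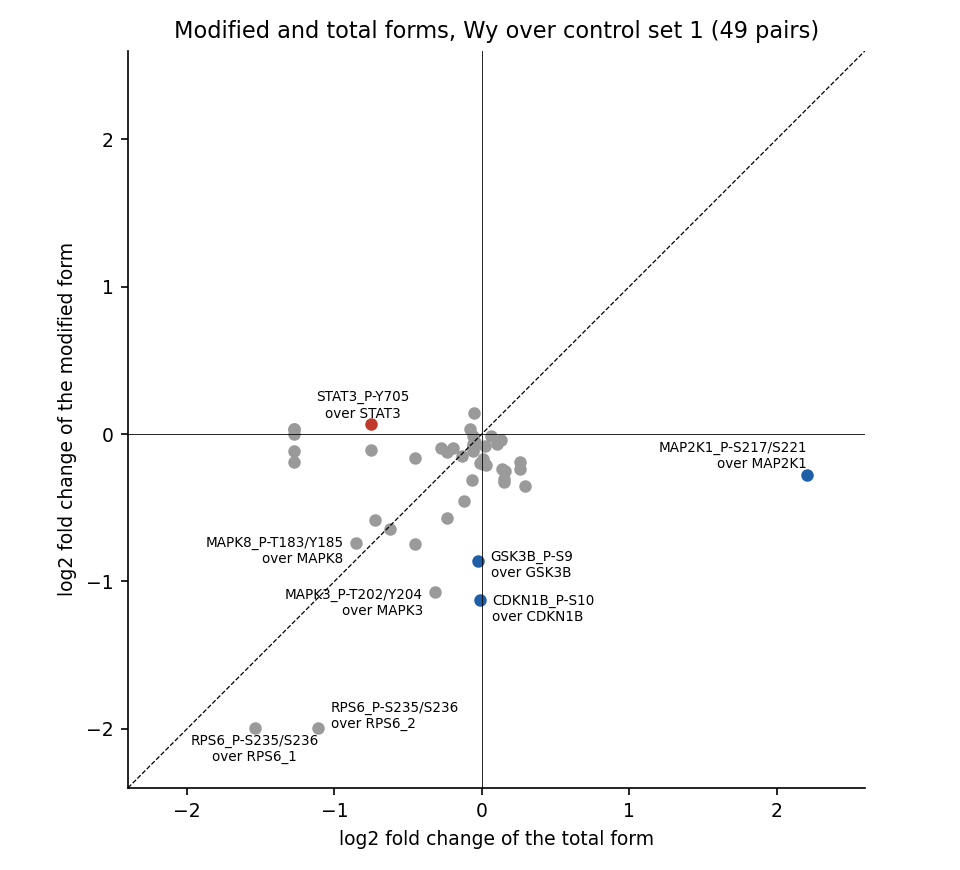
Log2 fold change, Wy over control set 1, of the modified form (vertical axis) against the total form (horizontal axis) in 49 pairs, with the dashed line where both are equal. Blue points are ratios called lower, the red point is the ratio called higher and grey points are not called. MAP2K1 lies far right of the line, and GSK3B and CDKN1B lie below it at a total form near 0.

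DHEA, an adrenal steroid that also acts as a peroxisome proliferator in rats, shares control set 1 with Wy, so both were set against each other directly, without the controls. Of 158 analytes, 2 differed (1.27%). CYP3A5 read 0.794, 0.714 and 0.736 RFI with DHEA, below each Wy animal, and Wy was higher by 1.04 ± 0.18 on the log2 scale (limma, adjusted p = 0.000128). CYP3A4_2 read 3.49, 1.66 and 3.42 RFI with DHEA, and Wy was lower by a log2 difference of -1.58 ± 0.32 (limma, adjusted p = 0.00081), which was not called with only the animals compared in the fit (adjusted p = 0.0984; range over the alternatives 0.000152 to 0.0984). The animals differed in dosing time as well, so compound and time cannot be told apart.

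Same-numbered Wy and DHEA animals deviated together weakly, so the comparison was also made with the replicate number as a block, as a paired fit. No label pairs these animals, and the pairing was chosen from the same values, so calls that only this fit makes are less certain. The paired fit called 5 analytes, 2 higher and 3 lower. Beside CYP3A5 (1.04) and CYP3A4_2 (-1.58), these were CYP2B6_3 at -0.93 ± 0.18, RPS6_P-S235/S236 at 0.87 and GLUL, in the 6 animals alone. The GLUL call rests on 2 pairs, since Wy animal 3 has no logarithm, and on Wy readings near the background of the antibody, so its size is not well determined.

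None of the other analytes called against control set 1 differed between Wy and DHEA in the unblocked fit, and the 95% intervals of the log2 differences give the sizes that remain possible. MAP2K1 read 355, 119 and 156 RFI with DHEA, and the difference was 0.19, with an interval from -0.55 to 0.93. For MAPK8 (0.504, 0.913 and 0.921 RFI with DHEA) the interval ran from -0.46 to 0.31, for STAT3 (1.01, 1.13 and 1.34 RFI) from -0.44 to 0.43, and for MAPK3_P-T202/Y204 (1.32, 1.44 and 1.48 RFI) from -0.46 to 0.51. CTNNB1_P-T41/S45 read 0.348, 0.319 and 0.283 RFI with DHEA, all above the Wy animals, at -0.79 ± 0.23 and an adjusted p of 0.0742.

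PBO and DES were given for 3 days like Wy, and their controls were likewise labelled 14 days, so the change of each against its own control set was compared with that of Wy. PBO, an inhibitor and inducer of P450 enzymes, differed from Wy in 11 of 158 analytes (6.96%), 2 higher and 9 lower with Wy. Most were P450 proteins or their reductase. CYP3A4_2 read 38.8, 40.0 and 35.6 RFI with PBO, and its change was 5.23 ± 0.32 with PBO and -0.50 ± 0.32 with Wy (limma, difference -5.73 ± 0.45, adjusted p = 1.88e-14).

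CYP1A2_1 read 4.63, 7.64 and 8.01 RFI with PBO, and differed by -3.29 ± 0.37 between the compounds. CYP2B6_1, with 2.84, 3.53 and 3.07 RFI under PBO, differed by -2.87 ± 0.47 and CYP2B6_3 by -3.30 ± 0.69. POR read 37.7, 48.5 and 25.4 RFI with PBO, and its change of 1.49 with PBO and 0.04 with Wy differed by -1.45 ± 0.36 (limma, adjusted p = 0.0039). CYP1A2_1 fell with Wy and rose with PBO, whose own log2 change was 2.47 ± 0.26 (limma, adjusted p = 1.53e-10). With the series matrix values the difference in POR was not called (adjusted p = 0.0957).

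CYP3A5 (1.37 ± 0.26) and MAP2K1 (2.61 ± 0.52) were the 2 analytes that changed upwards with Wy relative to PBO. MAP2K1 gave 33.1, 48.5 and 43.7 RFI with PBO, within the range of control set 1. The remaining calls were CTNNB1_P-T41/S45, CYP2C8, MAPK8 and AURKA_P-T288/T232/T198, with differences of -1.28, -1.93, -0.89 and -1.02. For AURKA_P-T288/T232/T198 the change against its own controls was -0.30 with Wy, not called, and 0.72 with PBO (limma, adjusted p = 0.0383). AURKA is a mitotic kinase, and the name gives its activating phosphorylation with those of its relatives. None of these 4 was called with the series matrix values. CTNNB1_P-T41/S45 was lost without control animal 9 (-1.03, adjusted p = 0.0534). The call of each of the other 3 was lost without Wy animals 1 or 2, control animals 5 or 7, or PBO animal 2, that of CYP2C8 also without PBO animal 1, that of MAPK8 without control animal 9, and that of AURKA_P-T288/T232/T198 without PBO animal 1 or control animals 6 or 9. The differences were then -1.93 to -1.77 for CYP2C8 (adjusted p from 0.0549 to 0.0877), -0.91 to -0.79 for MAPK8 (0.0504 to 0.107) and -1.02 to -0.91 for AURKA_P-T288/T232/T198 (0.067 to 0.109).

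DES, a synthetic oestrogen, differed from Wy in 4 of 158 analytes (2.53%). STAT3 read 2.72, 3.00 and 3.80 RFI with DES and had risen by 0.89 ± 0.22 against its controls, where it fell with Wy, and the difference was -1.65 ± 0.31 (limma, adjusted p = 0.000332). CYP3A5 (1.34 ± 0.26) and MAP2K1 (2.65 ± 0.52) were higher with Wy. CYP2B6_3 read 67.7, 249 and 179 RFI with DES and differed by -2.73 ± 0.69 (limma, adjusted p = 0.0105), a call lost without DES animal 2 (-2.34, adjusted p = 0.0686) or control animal 5 (-2.48, adjusted p = 0.0591). Without DES animal 1, the number of calls rose to 8.

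CYP3A5, MAP2K1 and CYP2B6_3 were called against both compounds given for 3 days. Against the shared control set 1, 10 of 158 analytes were called with DHEA, and 9 of the 14 Wy calls were called the same way there. These 9 included MAP2K1, at 2.02 with DHEA (limma, adjusted p = 0.000288), MAPK8 (-0.78) and MAPK14 (-0.61). Both lists of calls use the same 3 control animals, so the lists are not independent. CYP3A5 (0.48) and CYP2B6_3 (-1.26) were not called with DHEA. Other analytes are given side by side, in comparisons that share control animals. RPS6_P-S235/S236 differed from its own controls by -2.0 with Wy, -2.87 with DHEA, -1.87 with PBO and -2.65 with DES, each called. For MAPK3_P-T202/Y204 the values were -1.07, -1.10, -0.87 and -0.48, the last not called (adjusted p = 0.424). For CDKN1B_P-S10 they were -1.13, -1.14, -0.64 and -1.58, with PBO not called, and for GLUL -3.73, -2.21, -1.92 and -2.77, with DHEA and PBO not called and 1 PBO animal also below 0 RFI.

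**Figure D5:**
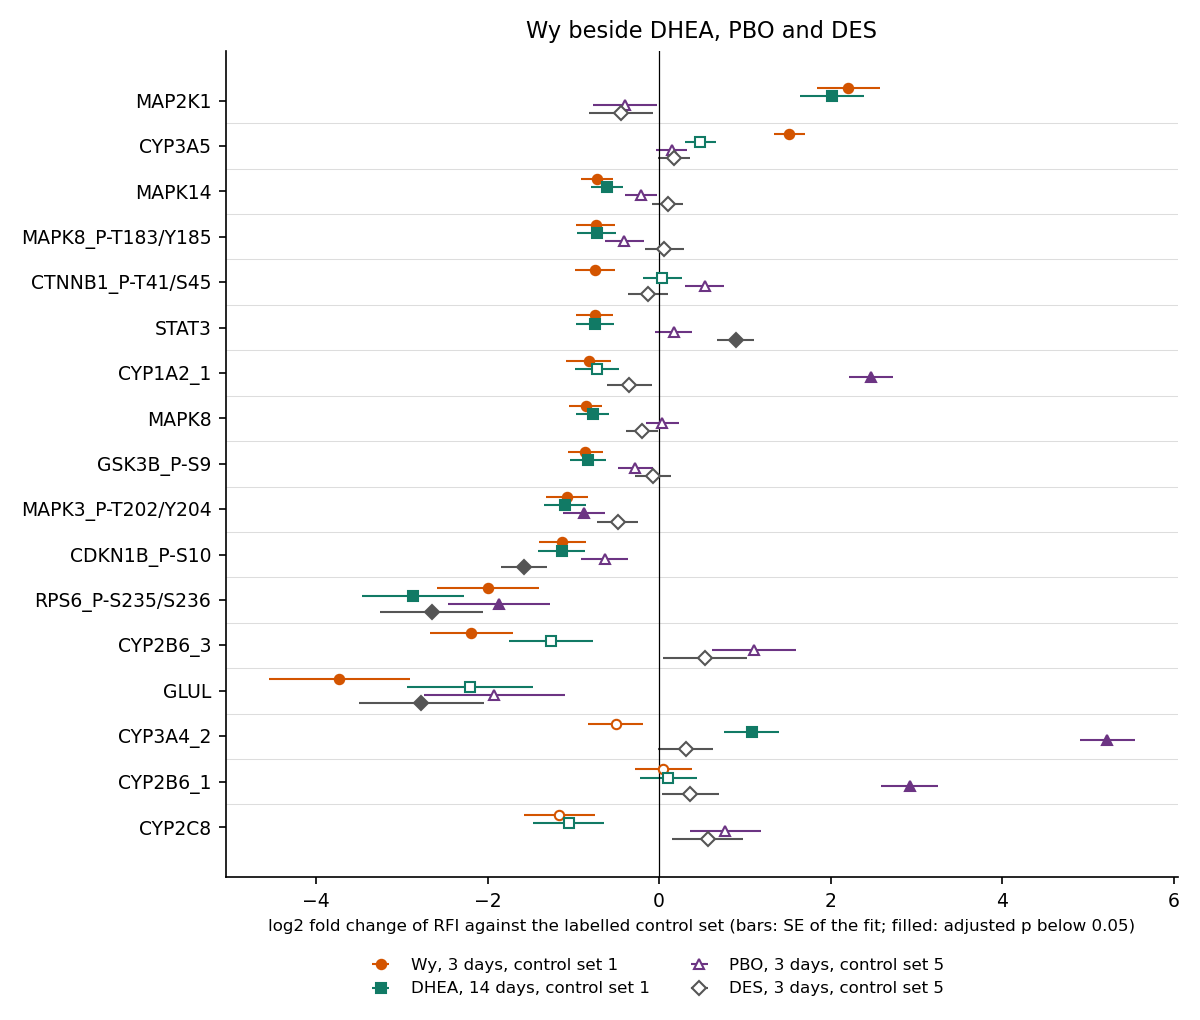
Log2 fold change of RFI against the labelled control set (horizontal axis) for Wy, DHEA, PBO and DES, with bars for the SE of the fit and filled symbols at an adjusted p below 0.05. The rows are the 14 analytes called for Wy and 3 further P450 analytes. Wy and DHEA share control set 1, as PBO and DES share control set 5, so their points are not independent; CYP3A5 lies apart for Wy, and CYP3A4_2 for PBO.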

How the data were processed

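The authors deposited for each rat an RFI intensity per analyte on a linear scale, which per the study's methods was background corrected, scaled across the array and summarized from repeated spots. A series matrix of the same rats, also from the authors, holds log2 values, described as ratios to control medians with missing values imputed. It served as an alternative. Groups came from the labels. RFI at or below 0 was set to missing, the rest was log2 transformed without further scaling, and 21 group means over 63 rats were fitted with limma 3.58.1 (R 4.3.3), with two-sided moderated tests; the fit was tested on simulated data. Arrays have no read depth: precision is limited by the number of rats. Figures were drawn with matplotlib 3.10.9.

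The comparisons were Wy against control set 1, against DHEA, of the change of Wy against those of PBO and DES, and of modified over total forms. Named were all called analytes, those of the same symbols, P450s, GLUL, HNF4A and PRKAA1, up to 3 further analytes per list that lay outside the control range, those called after centring and up to 5 from each other comparison; POR, UGT1A1, PPARA_1, PPARA_3 and AKT1_P-S473 were added after their values were seen. An analyte that this rule names is not reported here. The comparison, analytes and lists were chosen with earlier results of these data known, and the lists of drug metabolism partners and of RSK, PAK and adhesion kinases after the analyte names were seen. Wy and DHEA animals carry the same replicate numbers, and deviations of same-numbered animals from their group means correlated at 0.30, 0.13 and 0.14 over analytes, so these numbers were taken as pairs. Other pairings gave -0.21 to 0.05. No label states that the numbers pair animals, and the choice rests on the same values as the fit. Alternatives changed the values, controls, animals, floor, filter, variance model or scaling.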

Additional observations from a re-analysis of the deposited data

How the results depend on the processing

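No paired fit was made against control set 1, since no label pairs Wy animals 1 to 3 with control animals 4 to 6. With the replicate block, a pairing that no label states either, the Wy and DHEA comparison gave 5 calls. With only the animals compared in the fit, the calls became 24 against control set 1, 1 against DHEA and 17 against PBO. Centring each animal gave 23 against control set 1 and 4 against DHEA. With all methylcellulose controls there were 21 calls against the controls, 23 against PBO and 16 against DES, and with the series matrix 6 against PBO. Leaving out 1 animal gave 8 to 14 calls against control set 1, 8 to 13 against PBO and 3 to 8 against DES.

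CDKN1B_P-S10 turned to 0.41 in the series matrix, and its ratio over CDKN1B to 1.61; the cause was not tested. Uncalled values near 0 also changed sign: CYP2B6_1 to -0.0584 with all methylcellulose controls, GSK3B to 0.0725 in the matrix and 0.064 with centring, and CDKN1B to 0.014 with all methylcellulose controls and 0.0729 with centring. Leaving out 1 animal, the range crossed 0 for AKT1_P-S473 (-0.24 to 0.0449), CTNNB1_P-S675 (-0.377 to 0.0181), CYP2B6_1 (-0.0755 to 0.168), CYP2E1_1 (-0.221 to 0.0511), CYP4F2 (-0.182 to 0.211), GSK3B (-0.127 to 0.0493), CDKN1B (-0.136 to 0.0742), PPARA_3 (-0.0123 to 0.188), POR (-0.153 to 0.242) and STAT3_P-S727 (-0.241 to 0.00155). Of the 14 analytes called against control set 1, 6 were called in all 13 alternatives, 14 with centring and 9 in the matrix.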
